A study of Mus musculus with 24 samples.

Results

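The effect of deleting the Mup gene cluster on liver gene expression was described in female (XX) mice, comparing 6 fKO with 6 fWT mice. These 12 libraries are the ones whose sample titles give female sex, out of 24 in the series, and the other 12 come from 6 mKO and 6 mWT mice. All mice were on the C57/BL6N background named in the labels. fKO mice were homozygous for a CRISPR/Cas9 deletion of the whole cluster, and fWT mice were wild-type animals of the same breeding by heterozygous intercross. The line goes back to a single male founder, so that any other change linked to the deletion cannot be told apart from it. Both groups were sacrificed at 12 weeks of age, straight after a computed tomography scan, which followed a fast of some hours and was done under isoflurane. Both ate standard chow and were housed in small groups. A subset with 6 fKO and 6 fWT mice was also housed singly for some days of metabolic measurement. Whether the sequenced mice were that subset is not stated. Each library is the stranded mRNA of the liver of 1 mouse.

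Major urinary proteins are small lipocalins that bind hydrophobic molecules. The liver makes and secretes them into blood, from where they pass into urine and carry pheromones, and male mice make far more of them than females. Hepatocytes also secrete most plasma proteins, among them albumin, coagulation factors, complement and acute phase proteins, and run cholesterol, fatty acid, bile acid and drug metabolism. In rodents, many of these functions differ between the sexes through the pattern of growth hormone release, which acts on the liver by way of the receptor Ghr and the transcription factor Stat5b.

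Total counts per mouse lay between 17894849 and 26261394, and did not separate the groups (p = 0.823, exact permutation, two-sided). The sum of counts on genes named Mup was 0 in 4 fKO mice, 2 in fKO mouse 5 and 11 in fKO mouse 2, while fWT mice had 70768 to 110248, a difference that gave the smallest p that 6 mice against 6 allow (p = 0.00216, exact permutation, two-sided, log2 scale). Mitochondrially encoded genes took 5.17% ± 0.585 (SD, n = 6) of the counts in fKO livers against 4.92% ± 0.419 (SD, n = 6) in fWT livers (p = 0.435, exact permutation, two-sided). The 8 hepatocyte markers summed to between 103654 and 153687 CPM in the 12 mice. Pancreatic acinar markers stayed at or below 0.526 CPM and adipocyte markers at or below 0.196 CPM. CPM here and below are read counts relative to the library total, scaled by the TMM method.

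Livers of fKO mice 2 and 3 stood apart from the other 10 females by the genes of the circadian clock. Arntl, which encodes BMAL1 and is the activating partner of Clock, was at 16.9 and 15.6 CPM in these mice and between 0.585 and 4.33 CPM in the other 10. Clock itself was at 71.7 and 68.4 CPM against 27.9 to 51.0 CPM, and Nfil3, a repressor of clock-controlled genes, at 27.3 and 28.8 CPM against 6.54 to 19.9 CPM. All 3 were thus highest in the same pair of livers. The repressors went the other way. Per3 was at 12.2 and 9.63 CPM against 42.4 to 82.1 CPM, Per2 at 10.6 and 9.15 CPM against 23.8 to 56.9 CPM, and Ciart, a repressor of the BMAL1 and Clock dimer, at 2.98 and 1.81 CPM against 15.5 to 44.1 CPM. The output factor Dbp was at 17.4 and 14.8 CPM, below the 50.4 to 92.7 CPM of the others, whereas Per1 of these mice, at 20.7 and 24.2 CPM, lay within the range of the other 10. The group difference rested on this pair for Arntl, whose log2 fold change was 1.63 with them and -0.87 without, and in part for Nfil3, with 0.67 and 0.26. Male livers spanned a wide range too, with Arntl between 0.637 and 10.2 CPM. The methods of the study give no time of day for each sacrifice, and its part in this pattern was not tested. The likeness of fKO mice 2 and 3 was not limited to clock genes. Over the genes tested outside the Mup family, they were the closest pair within a group, with a chi-square per gene of 8.14 between their counts. All other pairs within a group lay between 19.9 and 73.0. Results below are given for all 12 mice. Beside them stand values without fKO mice 2 and 3 for many of the genes and lists named.

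**Figure D1:**
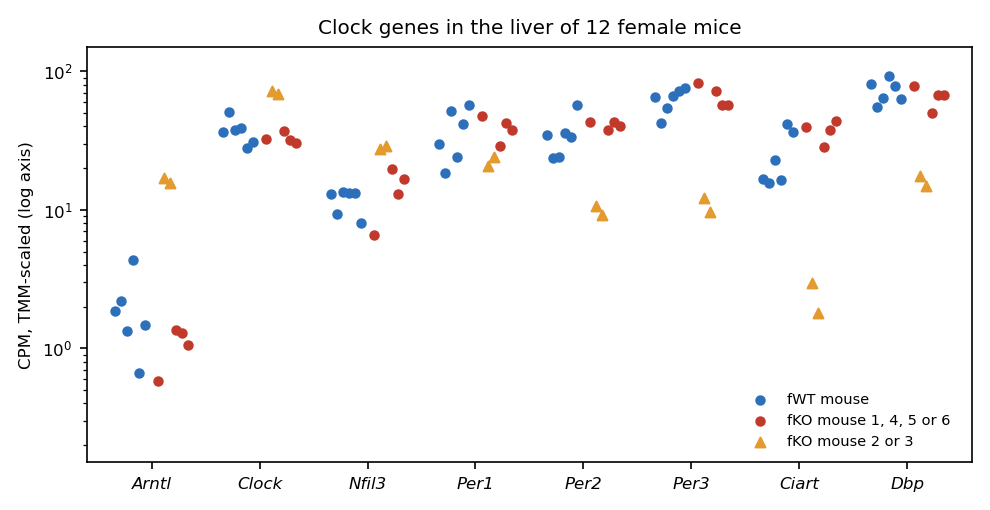
Expression of 8 clock genes in each female liver, as TMM-scaled CPM on a log axis, with 1 point per mouse. The triangles of fKO mice 2 and 3 lie above all other mice for Arntl, Clock and Nfil3 and below all others for Per2, Per3, Ciart and Dbp.

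The clock runs through 3 kinds of DNA element. BMAL1 and Clock bind the E-box (CACGTG) and drive the Per genes and Ciart, Dbp and Nfil3 act on the D-box (TTATGNAA), and the ROR and REV-ERB receptors act on elements with the core AGGTCA, which set Arntl and Nfil3. The RefSeq promoter windows of the 4 genes below (GRCm38.p6, 250 bases before to 50 after the start site) are printed 5′ to 3′ on the strand of the gene, because their genes separate fKO mice 2 and 3 in opposite directions. Capitals mark every match to 1 of the 3 elements on either strand. The windows are chr7:113207261-113207560 on the plus strand, and chr13:52980990-52981289, chr3:95882179-95882478 and chr4:151044616-151044915 on the minus strand.
Arntl: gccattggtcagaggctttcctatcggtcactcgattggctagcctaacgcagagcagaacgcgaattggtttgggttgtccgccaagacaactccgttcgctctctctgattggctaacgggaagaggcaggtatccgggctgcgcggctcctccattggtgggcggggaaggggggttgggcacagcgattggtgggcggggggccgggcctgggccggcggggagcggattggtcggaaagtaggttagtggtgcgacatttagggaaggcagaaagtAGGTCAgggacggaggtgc
Nfil3: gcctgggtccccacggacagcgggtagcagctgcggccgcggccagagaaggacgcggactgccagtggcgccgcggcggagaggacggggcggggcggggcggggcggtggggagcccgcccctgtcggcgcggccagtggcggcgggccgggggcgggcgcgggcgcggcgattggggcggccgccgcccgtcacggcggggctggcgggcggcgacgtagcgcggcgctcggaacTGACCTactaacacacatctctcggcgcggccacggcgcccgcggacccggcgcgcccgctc
Ciart: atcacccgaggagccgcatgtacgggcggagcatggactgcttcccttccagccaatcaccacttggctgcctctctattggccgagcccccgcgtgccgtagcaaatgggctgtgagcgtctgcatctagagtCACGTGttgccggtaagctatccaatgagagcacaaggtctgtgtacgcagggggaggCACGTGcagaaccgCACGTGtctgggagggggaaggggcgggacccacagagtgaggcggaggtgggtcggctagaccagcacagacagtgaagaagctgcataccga
Per3: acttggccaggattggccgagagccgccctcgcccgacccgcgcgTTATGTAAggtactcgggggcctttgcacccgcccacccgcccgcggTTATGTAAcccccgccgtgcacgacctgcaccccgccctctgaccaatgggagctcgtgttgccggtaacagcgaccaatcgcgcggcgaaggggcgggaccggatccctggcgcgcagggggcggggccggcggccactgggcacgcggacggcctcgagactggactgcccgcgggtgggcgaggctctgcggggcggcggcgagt
The Arntl window holds 1 AGGTCA core and that of Nfil3 holds 1 on the opposite strand, written as TGACCT. The Ciart window holds 3 E-boxes and the Per3 window 2 D-boxes. Of the 32851 promoter windows of the table, 16.3% hold the AGGTCA core, 7.15% the E-box and 3.38% the D-box, so that a match alone is common. It is a match of letters and no evidence of binding.

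Outside the Mup family, 12313 genes were expressed at 0.66 CPM or more in at least 6 of the 24 libraries and were tested with edgeR. At the cut-off of an unadjusted p under 0.01, which the study also used, 92 genes passed (0.747% of those tested), of which 50 were higher (0.406%) and 42 lower (0.341%) in fKO than in fWT mice. At a p under 0.05, 584 genes passed (4.74%), 307 of them higher (2.49%) and 277 lower (2.25%). With the Benjamini-Hochberg adjustment over all genes, edgeR called 0 genes outside the family at an adjusted p under 0.05, and DESeq2 called 2. The median log2 fold change of all genes tested was near 0, and 49.2% were higher in fKO mice. In 15 higher (0.122%) and 12 lower genes (0.0975%), 27 in all (0.219%), the 6 fKO and the 6 fWT mice did not overlap. A random order of 6 mice against 6 separates the groups fully in a fraction of 0.00216 of genes, about the share seen. Of these 27 genes, 15 were among the 92 (16.3% of them). The shares past both cut-offs were below the 1% and 5% that the cut-offs themselves allow, so single genes named below are descriptions of these 12 livers. Without fKO mice 2 and 3, 122 genes passed at 0.01, 29 of them among the 92, and 1 gene, Ociad2, had an adjusted p under 0.05 in edgeR.

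The fold changes of the female mice were related to the base composition of the transcripts. The median GC content of the longest transcript was 43.5% for the 50 higher genes, 54.2% for the 42 lower genes and 49.4% for all genes tested. Over 12301 genes, which share the same 12 libraries and are not independent, the Spearman rank correlation between log2 fold change and GC content was -0.38 in females and -0.04 in males. Among female mice, the slope of log2 expression on GC content was lowest in fKO mouse 4, at -0.22 per 10 percentage points, with a range from -0.08 to 0.17 in the other 11. Between the groups this slope differed by -0.08 (p = 0.169, exact permutation, two-sided). A model with GC content and transcript length as offsets in each library, chosen after seeing the data, passed 99 genes at 0.01, of which 57 were among the 92. The part of base composition in the results was not tested beyond this model, and its values are given beside some of the results.

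**Figure D2:**
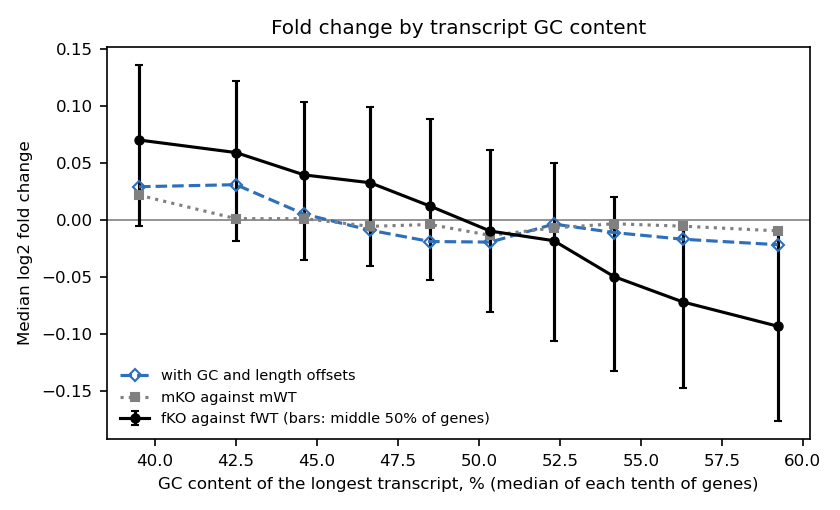
Median log2 fold change of all genes outside the Mup family in each of 10 equal bins of transcript GC content, with bars for the middle 50% of genes in fKO against fWT mice. The female medians go from 0.07 in the lowest bin to -0.09 in the highest, and with GC and length offsets they stay between -0.02 and 0.03.

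Among the genes without overlap of the groups, the lower ones with the smallest p were Snx8 and Polrmt. Snx8, a sorting nexin of endosomes (GRCm38 chromosome 5, 140340299 to 140389262), ranged from 5.59 to 8.78 CPM with a median of 7.49 CPM in fKO mice, and from 9.24 to 12.4 CPM with a median of 9.76 CPM in fWT mice. Every fKO mouse thus lay below every fWT mouse, at a log2 fold change of -0.45, SE 0.114, edgeR adjusted p = 0.443. Polrmt, the RNA polymerase that transcribes the mitochondrial genome (chromosome 10, 79736123 to 79746581), ranged from 5.84 to 8.03 CPM in fKO and from 8.49 to 10.3 CPM in fWT mice, with medians of 7.56 and 9.49 CPM. Again the groups were apart (log2 fold change -0.37, SE 0.112, edgeR adjusted p = 0.929). The transcripts of the mitochondrial genome itself were not lower. All 8 that were tested had a positive log2 fold change, with a median of 0.14, and 0 of them passed a p of 0.05. For mt-Co1, a subunit of cytochrome c oxidase, the log2 fold change was 0.15. The other lower genes of this kind were Fads3, a fatty acid desaturase family member (log2 fold change -0.43), Arfgap1, a regulator of Golgi vesicle coats (-0.23), Ints9, a subunit of the Integrator complex (-0.24), and Engase, a cytosolic glycosidase that trims N-glycans (-0.49).

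Among the higher genes without overlap, Sec63 helps to move new proteins through the translocon of the endoplasmic reticulum (ER) and ranged from 173 to 193 CPM with a median of 178 CPM in fKO mice, against 157 to 170 CPM with a median of 165 CPM in fWT mice. The difference was small and without overlap, (log2 fold change 0.14, SE 0.0494, edgeR adjusted p = 0.929). Cbll1, an E3 ubiquitin ligase also found in the RNA methylation complex, lay between 10.1 and 10.8 CPM in fKO and between 7.80 and 9.60 CPM in fWT mice, with a log2 fold change of 0.27. The ubiquitin ligases Pja2 (0.19) and Rnf170 (0.21), the latter in the ER membrane, Pigu, a subunit of the ER transamidase that attaches glycolipid anchors (0.21), Ptprg, a receptor tyrosine phosphatase (0.21), Mgam, an alpha-glucosidase (0.20), and Mfsd14a, a membrane transporter (0.18), were the others. With GC and length offsets, 6 of these higher genes and Engase no longer passed the cut-off, at an unadjusted edgeR p of 0.0102 for Mfsd14a, 0.0138 for Pja2, 0.0254 for Ptprg, 0.0255 for Pigu, 0.0277 for Mgam, 0.0426 for Sec63 and 0.0105 for Engase. When fKO mice 2 and 3 were left out, Arfgap1, Ints9, Engase, Rnf170, Pigu and Mfsd14a did not pass it. A further gene of this set, Ddit3, is listed as a pair of overlapping gene models whose reads cannot be told apart, and it is described with the stress response below.

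Taken by size instead, the genes past the cut-off with the largest log2 fold changes at 10 CPM or more were Serpina1e (1.94), Fmn1 (0.80), Cyp2d9 (0.71), C8a (0.65) and Cpeb2 (0.63) on the higher side. Fmn1 is an actin nucleator and Cpeb2 a regulator of mRNA translation, and the other 3 are secreted or metabolic proteins described below. Cpeb2 without fKO mice 2 and 3 was at 0.39. On the lower side they were Rasa3, a Ras GTPase-activating protein (-0.40), Plekhg6, a guanine nucleotide exchange factor (-0.40), Cyp4b1, a cytochrome P450 (-0.39), Parp10, an ADP-ribosyltransferase (-0.31), and Dctpp1, which breaks down dCTP (-0.31). When fKO mice 2 and 3 were left out, Fmn1, Rasa3, Plekhg6, Parp10 and Dctpp1 lost the cut-off as well as Serpina1e, C8a and Cpeb2. With the offsets, Fmn1, Cpeb2, Plekhg6, Cyp4b1, Parp10 and Dctpp1 lost it, and Dctpp1 went to -0.18. Rasa3 was below all fWT mice in 5 of 6 fKO mice, at 11.3 to 15.9 against 15.3 to 19.7 CPM. The lowest adjusted p of all genes outside the family belonged to Bahcc1, named here after its values were seen, which averaged 4.62 ± 1.14 CPM (SD, n = 6) in fKO livers against 7.12 ± 1.19 CPM (SD, n = 6) in fWT livers (log2 fold change -0.62, SE 0.147, edgeR adjusted p = 0.244). It encodes a chromatin protein, and 5 of 6 fKO mice lay below all fWT mice.

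**Figure D3:**
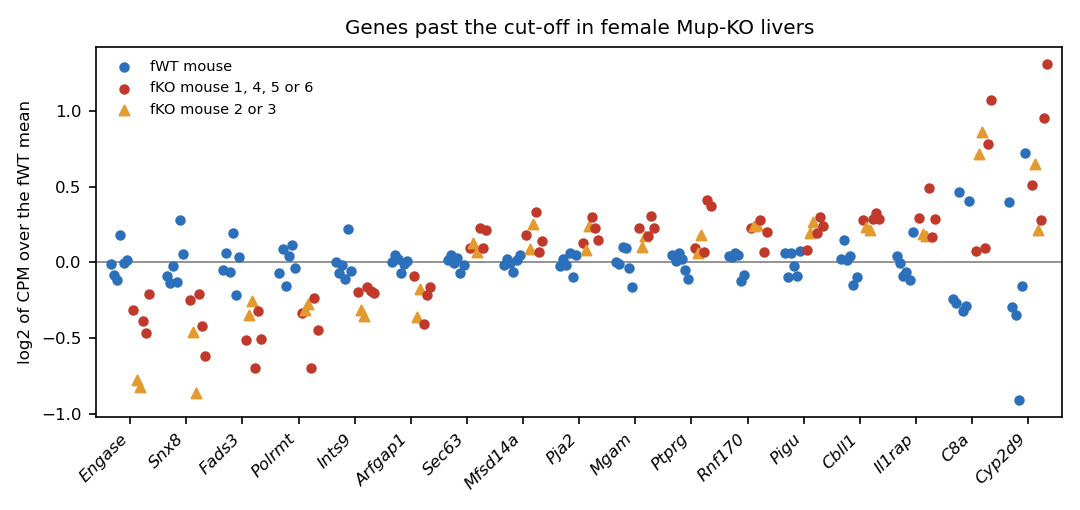
Each female mouse as log2 of its CPM over the mean of the fWT mice, for the genes past the cut-off whose groups do not overlap and for Il1rap, C8a and Cyp2d9. From Engase to Arfgap1 all fKO points lie below all fWT points and from Sec63 to Cbll1 all lie above, while the last 3 genes overlap.

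The pathways of the liver were then followed through 44 gene lists, which hold 1094 of the genes tested. Of these, 10 passed the cut-off (0.914%, against 0.747% of all genes tested) and 71 had a p under 0.05 (6.49%, against 4.74%). The lists and their members were chosen with earlier results of these data known. The shares therefore cannot show whether pathway genes changed more than other genes. The 10 genes are spread over 6 lists. All of them were higher in fKO mice, and 0 had an adjusted p under 0.05 in edgeR. The lists with the largest positive medians were male-biased liver genes (0.31), cholesterol synthesis and uptake (0.26) and acute phase proteins (0.22), and those with the largest negative medians were antigen presentation (-0.19), female-biased liver genes (-0.19) and the circadian clock (-0.11). Beside them stands the median of all genes tested, which was -0.00.

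**Figure D4:**
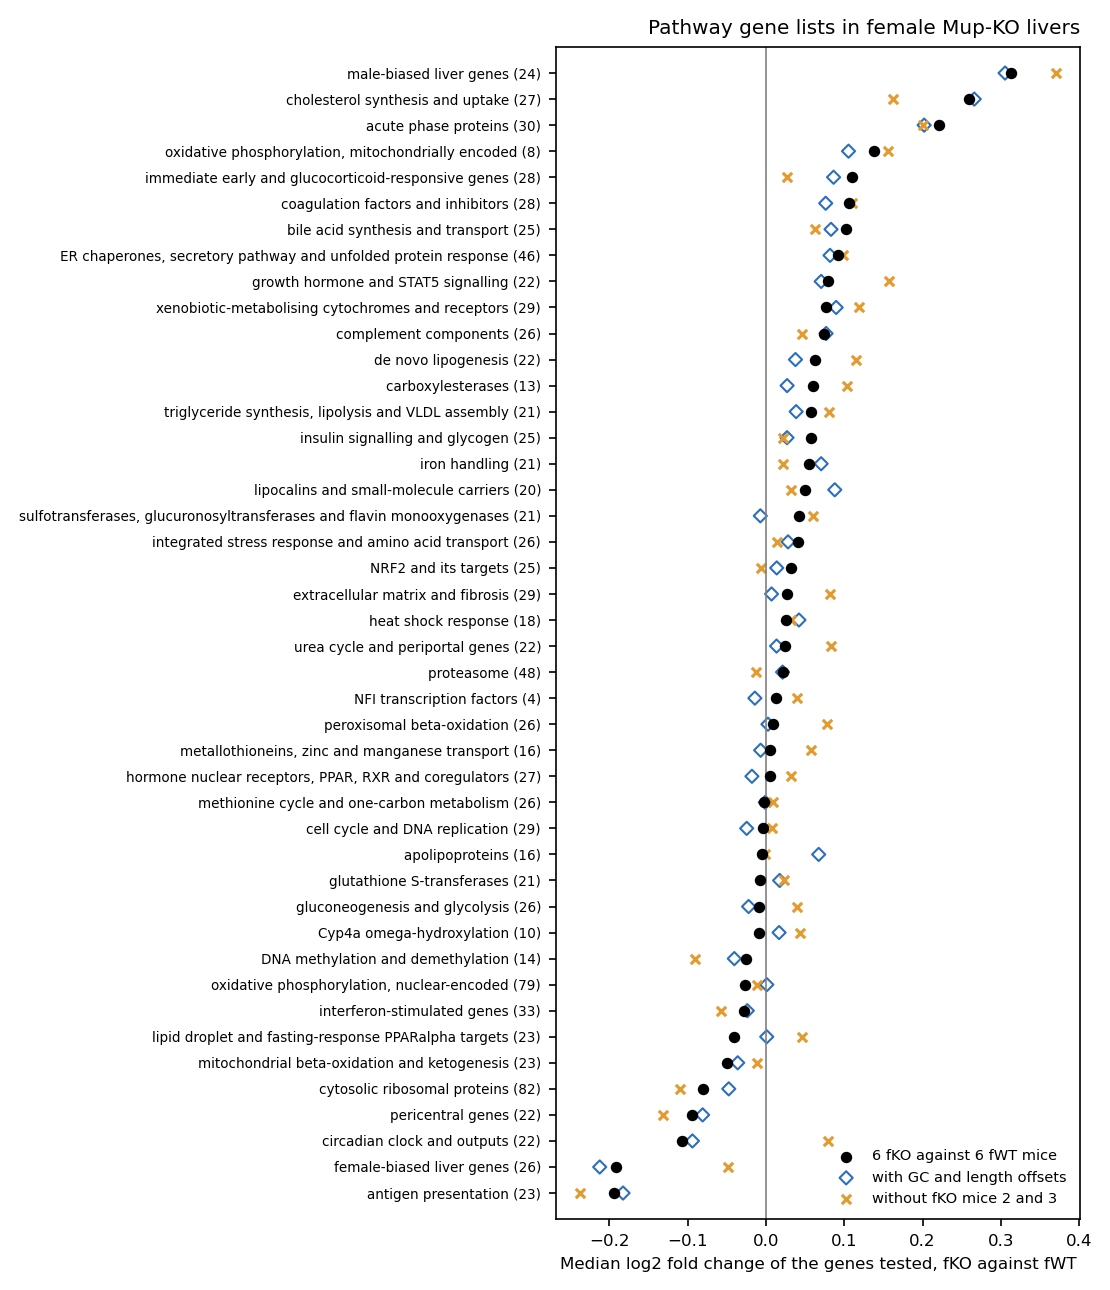
Median log2 fold change of fKO against fWT mice in each of 44 gene lists, with the number of genes tested in parentheses, from all 12 mice (black), with GC and length offsets (diamonds) and without fKO mice 2 and 3 (crosses). Most medians lie within 0.1 of 0, and the clock list changes sign without these mice, from -0.11 to 0.08.

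Genes that are more abundant in male than in female liver made up the list with the highest median. Of its 24 genes, 22 were higher in fKO mice, 3 passed the cut-off and 6 had a p under 0.05, all higher. With fKO mouse 1 left out the median of the list was 0.20. C8a, the alpha chain of complement component 8 (chromosome 4, 104815679 to 104876398), ranged from 271 to 542 CPM with a median of 432 CPM in fKO mice, and from 205 to 354 CPM with a median of 215 CPM in fWT mice. Of the 6 fKO mice, 4 lay above all fWT mice, and all 12 lay below the 720 to 1267 CPM of the male livers (log2 fold change 0.65, SE 0.187, edgeR adjusted p = 0.929). Its neighbour C8b (104766317 to 104804548), which encodes the beta chain, had a log2 fold change of 0.41. Both lie on the chromosome of the Mup cluster, which holds 3 of the 92 genes past the cut-off (3.26%) and 6.1% of all genes tested.

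Cyp2d9, a steroid 16-alpha-hydroxylase typical of male liver (chromosome 15, 82433437 to 82456845), ranged from 45.7 to 97.9 CPM in fKO and from 20.98 to 65.1 CPM in fWT mice, with medians of 59.0 and 33.7 CPM. The groups overlapped, and the male livers were at 975 CPM or more. The log2 fold change was 0.71 and the SE 0.216, with an edgeR adjusted p of 0.929. Serpina1e, 1 of a cluster of alpha-1-antitrypsin genes, ranged from 74.0 to 2460 CPM with a median of 904 CPM in fKO mice, and from 188 to 495 CPM with a median of 276 CPM in fWT mice. The 3 highest livers were fKO mice 2, 3 and 5, and 1 fKO mouse was below all fWT mice. Without fKO mice 2 and 3 the log2 fold change went from 1.94 to 0.91, with an edgeR adjusted p of 0.807, and of the list's 3 genes Cyp2d9 alone passed the cut-off. Cyp4a12a (1.51), Elovl3 (0.80) and Cyp7b1 (0.38), an omega-hydroxylase, a fatty acid elongase and an oxysterol hydroxylase, did not pass the cut-off. Cyp4a12a lay between 0.0511 and 2.81 CPM, in part below the worth of 3 counts, so its fold is imprecise, and Elovl3 without fKO mice 2 and 3 was at 0.43. Serpina1e, Cyp2d9 and Cyp4a12a have near-identical paralogs, so that their counts are uncertain.

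The counterpart list, 26 genes more abundant in female liver, had a median of -0.19, with 17 of them lower in fKO mice, 0 past the cut-off and 1 at a p under 0.05. That gene was Cyp3a41b, a female-specific cytochrome P450 with close paralogs, at 1.99 to 7.71 CPM with a median of 2.72 CPM in fKO mice and 1.67 to 14.8 CPM with a median of 11.1 CPM in fWT mice. The ranges overlapped throughout. Its paralog Cyp3a16 had a log2 fold change of -1.29, with values from 3.27 to 140 CPM in fKO and from 14.3 to 250 CPM in fWT mice. The median of the list without fKO mice 2 and 3 was -0.05, while 1 gene was then lower past the cut-off and 4 were lower at a p under 0.05. The growth hormone axis, whose part in these values was not tested, had a median of 0.08 over 22 genes. Ghr averaged 637 ± 43.1 CPM (SD, n = 6) in fKO livers against 555 ± 34.2 CPM (SD, n = 6) in fWT livers (log2 fold change 0.20, SE 0.0783, edgeR adjusted p = 0.929), while Stat5b (0.17) and Igf1 (0.08), the transcription factor and the main secreted target, had p above 0.3. Stat5b was highest in fKO mice 2 and 3, and without them it was at -0.08, Igf1 at 0.17 and the median of the axis at 0.16. Esr1, the oestrogen receptor alpha, was at 49.0 to 76.5 CPM in fKO and 21.7 to 56.6 CPM in fWT mice, with 4 fKO mice above all fWT mice (log2 fold change 0.45, SE 0.24, edgeR adjusted p = 0.929).

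Cholesterol synthesis and uptake, the SREBP2 programme, was higher in 24 of 27 genes, of which 0 passed the cut-off and 5 had a p under 0.05. Acat2, which makes acetoacetyl-CoA, ranged from 56.4 to 86.3 CPM with a median of 70.1 CPM in fKO mice, and from 45.04 to 65.4 CPM with a median of 50.7 CPM in fWT mice (log2 fold change 0.41, SE 0.147, edgeR adjusted p = 0.929). Idi1, an isomerase of the mevalonate pathway, ranged from 30.3 to 73.5 CPM in fKO and from 25.6 to 43.2 CPM in fWT mice (0.57). In both genes 4 of 6 fKO mice were above all fWT mice. The list as a whole varied from mouse to mouse within each group. As the median of log2 expression relative to the 12-mouse mean, it was 0.57, 0.39 and 0.30 in fKO mice 1, 3 and 2 and -0.26 and -0.27 in fKO mice 4 and 6, while fWT mice lay between -0.37 and 0.28. Without fKO mice 2 and 3 the median log2 fold change was 0.16, with 1 gene at a p under 0.05, and with fKO mouse 1 left out instead it was 0.14.

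In fatty acid metabolism the medians were closer to 0. The median was 0.01 for 26 genes of peroxisomal beta-oxidation, -0.05 for 23 genes of mitochondrial beta-oxidation and ketogenesis, -0.01 for 10 genes of the Cyp4a, Cyp4f and Cyp4v families, -0.04 for 23 fasting-response targets of PPARalpha and 0.06 for 22 genes of de novo lipogenesis, with 0 genes past the cut-off in each. Without fKO mice 2 and 3 the medians were 0.08 for peroxisomal beta-oxidation, with 4 genes higher at a p under 0.05, 0.05 for the PPARalpha targets and 0.11 for lipogenesis, where 1 gene passed the cut-off. With the offsets and all mice 1 lipogenic gene passed it too. Ppara, the receptor that drives fatty acid oxidation, ranged from 80.6 to 166 CPM with a median of 141 CPM in fKO mice, and from 93.7 to 124 CPM with a median of 107 CPM in fWT mice. The fKO mice fell on both sides, with 4 above and 2 below all fWT mice, and those below were fKO mice 2 and 3. The difference over all 12 mice (log2 fold change 0.24, SE 0.145, edgeR adjusted p = 0.929) became larger without this pair, at a log2 fold change of 0.47 and an edgeR adjusted p of 0.245. Pdk4, a PPARalpha target that spares glucose (0.87), went to 0.19 without them. Srebf1 (-0.33) and Fasn (-0.11), the regulator and the main enzyme of lipogenesis, Lipe, the hormone-sensitive lipase (-0.35), Elovl2, an elongase of polyunsaturated fatty acids (0.23), Mogat1, an acyltransferase (0.28), Apoa2 (-0.02) and Apob (0.21), both lipoprotein components, did not pass. Mogat1 lay between 0.113 and 0.631 CPM, in part down to the worth of 3 counts, so its fold is imprecise. Glucose metabolism was like fatty acid metabolism. Of 26 gluconeogenic and glycolytic genes 0 had a p under 0.05, with log2 fold changes of 0.06 for Pck1 and 0.04 for G6pc, and Ppp1r3b, which targets a phosphatase to glycogen, had one of 0.64 with an edgeR adjusted p of 0.929.

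All 30 acute phase genes tested had a positive log2 fold change, with a range from 0.01 to 0.66, 1 past the cut-off and 5 at a p under 0.05. The gene past it was Il1rap, the co-receptor of interleukin 1 (chromosome 16, 26581704 to 26730117), at 137 to 172 CPM with a median of 144 CPM in fKO mice and 113 to 140 CPM with a median of 119 CPM in fWT mice. The groups overlapped, with 3 fKO mice above all fWT mice (log2 fold change 0.27, SE 0.072, edgeR adjusted p = 0.55). Its receptor partner Il1r1 (0.61) and the fibrinogen chains Fgb (0.22) and Fgg (0.23) had a p under 0.05. The list leaned on fKO mouse 6, whose median was 0.51 above the mean of all mice, while the other fKO mice lay between -0.16 and 0.11 and fWT mice between -0.17 and -0.03. Leaving that mouse out, the median log2 fold change of the list was 0.09, against 0.22 with all mice. In that mouse Lcn2, an acute phase lipocalin, was at 33.1 CPM, against 4.04 to 8.18 CPM in the other fKO mice.

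Complement was higher in 20 of 26 genes, with a median of 0.07, 3 past the cut-off and 8 at a p under 0.05, all higher. Besides C8a these were C9, the pore-forming component, at 242 to 387 CPM with a median of 328 CPM in fKO and 178 to 257 CPM with a median of 251 CPM in fWT mice (log2 fold change 0.47, SE 0.145, edgeR adjusted p = 0.929), and C4bp, an inhibitor of the classical pathway, at 606 to 708 CPM against 536 to 612 CPM (0.17). In C9 4 and in C4bp 5 of the 6 fKO mice lay above all fWT mice. With fKO mice 2 and 3 left out, 0 genes of the list passed the cut-off, 3 were higher at a p under 0.05 and 1 was lower. With the offsets C4bp did not pass it. C8a, C8b and C9 build the membrane attack complex, and all of them are more abundant in male liver in these data, with C9 at 481 CPM or more in every male. Coagulation factors had a median of 0.11 over 28 genes, with 0 past the cut-off and 3 at a p under 0.05. Albumin (Alb) was at 0.12.

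The ER list, with chaperones, translocon and unfolded protein response, was higher in 40 of 46 genes by a small amount, a median of 0.09, with 2 genes past the cut-off and 6 at a p under 0.05. Besides Sec63 the gene past it was Eif2ak3, the ER stress kinase PERK, at 13.9 to 19.8 CPM with a median of 17.9 CPM in fKO and 11.7 to 15.4 CPM with a median of 13.9 CPM in fWT mice. Of the fKO mice 4 were above all fWT mice (log2 fold change 0.32, SE 0.109, edgeR adjusted p = 0.929). Hspa5, the main ER chaperone BiP, averaged 716 ± 119.6 CPM (SD, n = 6) in fKO livers against 591 ± 122 CPM (SD, n = 6) in fWT livers, and Xbp1, a transcription factor of the response, had a log2 fold change of 0.04. In the integrated stress response, into which PERK feeds, 1 of 26 genes passed. This was Ddit3, which encodes CHOP, at 2.05 to 5.09 CPM with a median of 3.31 CPM in fKO and 1.76 to 2.87 CPM with a median of 2.21 CPM in fWT mice (log2 fold change 0.61, SE 0.209, edgeR adjusted p = 0.929). The median of that list was 0.04. With GC and length offsets the ER list was higher in 41 genes with a median of 0.08. By mouse, the list was highest in fKO mice 6, 5 and 3, at 0.19, 0.12 and 0.09, followed by fWT mouse 4 at 0.08. Without fKO mice 2 and 3, neither Eif2ak3 nor the Ddit3 model described above passed the cut-off, and Sec63 did. The other Ddit3 model, with fewer counts, is the one whose groups did not overlap. It was at 0.528 to 1.175 CPM in fKO and 0.311 to 0.511 CPM in fWT mice (log2 fold change 0.81, SE 0.266, edgeR adjusted p = 0.929). This model passed the cut-off without fKO mice 2 and 3 as well.

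Antigen presentation was the list with the lowest median. Of its 23 genes 20 were lower in fKO mice, with 0 past the cut-off and 5 at a p under 0.05. These were the class II genes H2-Ab1 (-0.67), H2-Aa (-0.57), H2-Eb1 (-0.46) and Cd74 (-0.52) and the class I activator Nlrc5 (-0.28). H2-Ab1 ranged from 5.43 to 15.1 CPM with a median of 8.36 CPM in fKO mice, and from 7.85 to 21.7 CPM with a median of 14.7 CPM in fWT mice (log2 fold change -0.67, SE 0.25, edgeR adjusted p = 0.929). When fKO mice 2 and 3 were left out, 22 genes were lower, 7 of them at a p under 0.05, and H2-Ab1 passed the cut-off at -0.84. By mouse the list was highest in fWT mice 4 and 3 (0.36 and 0.31), fKO mouse 3 (0.22) and fWT mouse 1 (0.18). The other fWT mice lay between -0.14 and -0.02 and the other fKO mice between -0.25 and -0.02. Since the class II genes are made mostly by macrophages and other immune cells, cell type markers were set beside the list. All 8 Kupffer cell markers had a negative log2 fold change, with a median of -0.33 and 0 at a p under 0.05. Their sum ranged from 129.5 to 234 CPM in fKO mice, with a median of 157 CPM, and from 158 to 284 CPM in fWT mice, with a median of 203 CPM. In whole liver, fewer cells of a type and less RNA per cell cannot be told apart. The B and plasma cell markers summed to 28.1 CPM in fKO mouse 3 and to between 5.05 and 15.0 CPM in the other 11 mice, and the part of these cells in the result was not tested. Sinusoidal endothelial markers were at a median of 237 CPM in fKO and 252 CPM in fWT mice. Interferon-stimulated genes had a median of -0.03, with 1 of 33 at a p under 0.05, Usp18, a brake on interferon signalling (-0.31).

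**Figure D5:**
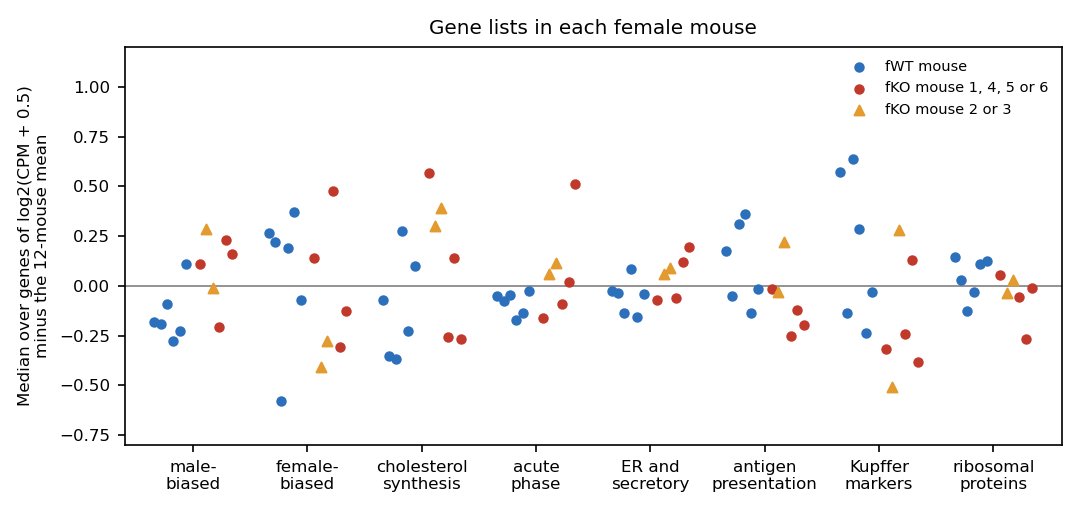
Each female mouse as the median over the genes of a list of its log2(CPM + 0.5) minus the mean of the 12 mice, for 8 lists. fKO and fWT mice overlap in every list, and fKO mouse 6 lies highest for acute phase proteins, at 0.51.

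Cytosolic ribosomal protein genes were lower in 76 of 82 genes by a small amount, a median of -0.08, with 0 past the cut-off and 4 at a p under 0.05, among them Rps15 (-0.23). With GC and length offsets the median was -0.05, with 63 lower, and Rps15 did not have a p under 0.05. Leaving out fKO mice 2 and 3, 12 genes were lower at a p under 0.05. By mouse the list was lowest in fKO mouse 5, at -0.27, and between -0.06 and 0.05 in the other fKO mice, and with mouse 5 left out the median log2 fold change was -0.04. Nuclear-encoded subunits of oxidative phosphorylation had a median of -0.03 over 79 genes, which was 0.00 with the offsets, with Atp5g2 (-0.25) and Ndufa11 (-0.26) at a p under 0.05 before and above it after. The proteasome had a median of 0.02 over 48 genes, 3 of them at a p under 0.05, Psmd10 (0.23) among them.

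In drug and antioxidant metabolism, Cyp2c54 was the single gene past the cut-off among 29 xenobiotic cytochromes and receptors, whose median was 0.08. It ranged from 488 to 685 CPM with a median of 621 CPM in fKO and from 375 to 641 CPM with a median of 475 CPM in fWT mice (log2 fold change 0.32, SE 0.114, edgeR adjusted p = 0.929), and did not pass the cut-off without fKO mice 2 and 3. Its paralog Cyp2c50 had a log2 fold change of 0.22. Reads of these genes can be shared within the family. The antioxidant regulator Nfe2l2 (0.03) and its targets had a median of 0.03 over 25 genes, with 0 past the cut-off. Of its targets, Gclm (0.16) and Hmox1 (-0.41), a glutathione synthesis and a haem-degrading enzyme, had a p under 0.05 in opposite directions, and Gclc (0.19) did not. With that pair of fKO mice left out, neither Gclm nor Hmox1 had a p under 0.05, Gclc was at -0.03 and the median at -0.01. Glutathione S-transferases had a median of -0.01, with Gstt2 at -0.33. Bile acid synthesis and transport had a median of 0.10 with 0 of 25 genes at a p under 0.05, and the rate-limiting enzyme Cyp7a1 (-0.17) and the canalicular pump Abcc2 (0.15) were among them. Cyp7a1 was lowest in fKO mice 2 and 3, at 104 and 198 CPM against 228 to 667 CPM in the other 10, and without them it was at 0.20. Abcc2 then passed the cut-off at 0.27, and 2 genes of the list were higher and 1 lower at a p under 0.05.

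The knockout effect in females was set against that in males in the same model. In mKO against mWT mice 417 genes outside the family passed the cut-off (3.39%), and 3 genes passed in both sexes (0.0244%). Among the 92 genes of the females, 3 is about the number that the male share of 3.39% gives by itself. Of the 3, Il1rap and Spryd7 (0.23 in females) were higher. Pacs2, a sorting protein between ER and mitochondria (-0.26 in females), was lower. Leaving out fKO mice 2 and 3, Spryd7 and Pacs2 lost the cut-off in females. The interaction of genotype and sex passed in 143 genes (1.16%), and edgeR gave an adjusted p under 0.05 for 1 (0.00812%), Zfp37. This zinc finger gene lies on the chromosome of the Mup cluster (chromosome 4, 62189540 to 62231047), and the part of its position in the result was not tested. It was near its detection limit in females (0.393 CPM as the median of fKO and 0.35 CPM of fWT mice). In males its log2 fold change was 3.54 (edgeR adjusted p = 3.17e-08), with values up to 6.27 CPM. Side by side, the median log2 fold change of the male-biased list was 0.31 in females and -0.07 in males, that of cholesterol synthesis 0.26 and -0.04, and that of antigen presentation -0.19 and 0.05. Apolipoproteins had -0.01 and 0.20, and the fasting-response targets of PPARalpha -0.04 and 0.26. With GC and length offsets the female median of the apolipoproteins was 0.07, with 14 of 16 genes higher, and that of the PPARalpha targets 0.001. The female medians of the male-biased, cholesterol and antigen presentation lists were then 0.31, 0.27 and -0.18. The interaction passed in 2 of 24 male-biased genes, in 0 of 27 cholesterol genes, in 0 of 23 antigen presentation genes and in 2 of 16 apolipoproteins. Without fKO mice 2 and 3 the interaction passed in 468 of 12263 genes, and 23 had an adjusted p under 0.05 in edgeR, with Ppara among them. The male counts rose in that fit too, though no male library was left out. In mKO against mWT mice they went from 417 to 514 genes past the cut-off. At an adjusted p under 0.05 in edgeR they went from 9 to 81. The interaction counts with and without this pair are thus not a measure of the female effect alone.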

How the data were processed

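RNAseq of liver was analysed in 12 female mice, with the 12 male libraries of the same run in the model. The authors made stranded mRNA libraries, read them as single ends, processed them, per the submitters' notes, with bcl2fastq 2.19, fastp 0.20, STAR 2.7a and edgeR 3.28.1 on GRCm38.p6, and counted reads per Ensembl gene with featureCounts. Deposited by the authors are raw read counts per gene; the annotation, the strand setting and the treatment of reads with several matches are not given in the sources used here. Of 25746 genes, 25635 were matched to GENCODE M21 for symbols and positions.

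Counts were tested in R 4.3.3 with edgeR 4.0.16 (TMM, robust quasi-likelihood F-test, a mean for each of 4 groups) on genes with 0.66 CPM in at least 6 libraries. p-values are two-sided and adjusted after Benjamini-Hochberg over all 12330 genes tested, and 0.01 is the study's cut-off. The procedure was tested on simulated counts. Any pair of mice within a group was further apart than sampling noise allows (lowest chi-square per gene 8.14, for fKO mice 2 and 3). At these depths 3 counts, taken as the floor, are 0.113 to 0.175 CPM, a floor for counting error alone, as molecular identifiers were not used. Single values were compared with exact permutation tests (scipy 1.17.1).

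Gene lists are described by counts and medians, without a test. Genes named are the list members past the cut-off or with the smallest p, up to 12 per direction without overlap of the groups, 5 per direction by size at 10 CPM or more, and a set of index genes; C8b, H2-Aa, H2-Eb1, Cd74, Bahcc1, Ociad2, Map3k13, Clock, Per2, Per3 and Ciart were named after their values were seen. Members and lists were chosen with earlier results of these data known. Alternatives were DESeq2 1.42.0, its size factors, 3 other filters, non-robust dispersions, the deviances of edgeR 4, limma-voom 3.58.1, no Mup genes, female libraries alone, the mouse number as a block and each mouse left out. GC and length offsets (splines of 5 degrees of freedom) and leaving out fKO mice 2 and 3 were chosen after seeing the data. Promoter sequences are from RefSeq. Methylation and phenotype data were not analysed here, and some genes are not reported here.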

Additional observations from a re-analysis of the deposited data

Results flagged for a closer look

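In 198 groups of 6 mice, 10 held a mouse far from the other 5 by Dixon's test at the 95% level, and chance gives about 1 in 20. Among fKO mice, Acta2, a smooth muscle actin, was at 19.5 CPM in mouse 5 against 0.158 to 2.50 CPM in the others. Lcn2 was at 33.1 CPM in fKO mouse 6, and Usp18 at 14.8 CPM in the same mouse against 10.4 to 11.6 CPM. Plekhg6 was at 12.7 CPM in fKO mouse 1, against 7.19 to 8.83 CPM in the other fKO mice. Cyp4b1 was at 15.0 CPM in fKO mouse 2, above the 9.58 to 11.1 CPM of the others. Il1rap was at 172 CPM in fKO mouse 4 against 137 to 149 CPM, and the slope of log2 expression on GC content was lowest in that mouse, at -0.22 against -0.03 to 0.03. Among fWT mice, Fmn1 was at 15.6 CPM in mouse 1, Ints9 at 10.7 CPM in mouse 5 and Per2 at 56.9 CPM in mouse 6, in each case the highest of the group. The difference between the knockout effects in females and males was -3.40 on the log2 scale for Zfp37 (adjusted p = 0.00562 for the interaction in edgeR).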

How the results depend on the processing

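Of the 92 genes past the cut-off in females, all kept their direction in most alternatives, with at least 90 doing so in each that was run. They were chosen on these same libraries, so their direction had little room to change. Fewer of the 92 passed the cut-off again, from 90 with the deviances of edgeR 4 to 21 with the offsets and without fKO mice 2 and 3. With the mouse number as a block it was 35, and with the female libraries alone 48. Leaving out 1 mouse moved the count between 58 (fKO mouse 2 left out) and 140 (fKO mouse 1 left out). With the mouse number as a block 61 genes passed. Same-numbered mice are separate animals, their deviations correlated between -0.37 and 0.19, and 0 of 6 fKO mice correlated best with their own number, so the numbers were not taken as pairs. The block called 1 gene at an adjusted p under 0.05, Cyp2d9, and 1 with the GC and length offsets as well. DESeq2 called 2 such genes (Bahcc1 and Serpina1e), the female libraries alone 1 (Map3k13, higher in all 6 fKO mice), and the data without fKO mice 2 and 3 1 (Ociad2). Leaving out 1 mouse gave 0 to 0 such genes. For the interaction the counts at a p under 0.01 went from 109 to 206 with 1 mouse left out, to 468 without fKO mice 2 and 3 and to 450 with the offsets as well, and at an adjusted p under 0.05 from 1 to 1, to 23 without these mice with or without the offsets, and to 6 with DESeq2. Total Mup expression differed by -15.1 to -14.7 on the log2 scale with 1 mouse left out. The cause of these shifts was not tested. Genes below the filter of 0.66 CPM were not tested at this depth.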
